A study of Rattus norvegicus with 9 samples.

Results

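Lsp1 (ENSRNOG00000020300) and Lcp1 (ENSRNOG00000010319) are the 2 genes described here, of 32662 in the count table. Both bind filamentous actin and are best known from white blood cells, and they were chosen because sodium valproate (VPA) moved them in opposite directions. They were found by symbol in the authors' deposited tables and matched by Ensembl identifier to the counts of all 9 libraries. The cells were RN46A, a temperature-sensitive line made from rat raphe cells of the serotonin lineage. After 72 h of differentiation at 39 °C in 1% serum, cultures received 0.5 mM VPA, 0.5 mM lithium or neither (control) for a further 72 h. Growth before that was at 33 °C in 5% serum. The dishes for differentiation were coated with collagen and fibronectin. Each group had 3 libraries of unstranded polyadenylated RNA, all from this 1 cell line.

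The actin cytoskeleton is a network of filaments that proteins cross-link, cap, sever and anchor to the membrane. Lsp1, lymphocyte-specific protein, binds the filaments under the membrane of lymphocytes, neutrophils, macrophages and endothelium, where it acts in migration and is phosphorylated by protein kinase C and by MAPKAP kinase 2. Lcp1, also called L-plastin, is the leucocyte form of the plastins, which bundle parallel filaments through a pair of actin-binding domains and carry calcium-binding EF-hands. In human tissue L-plastin is largely confined to blood cells, but many human tumour cells of other origin make it too.

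The libraries held 9580591 to 13030300 reads assigned to genes, so 1 read was worth 0.0770 to 0.108 CPM (reads scaled to library size with TMM factors). The labels do not state whether the 3 libraries of a group were separate cultures, and p-values here cover the variation among these libraries, part of which may be technical. Symbols were held for 1311 identifiers, those in the authors' tables, and 1243 of these genes had enough reads to be tested. Of 13 serotonergic markers only the monoamine oxidase Maob could be looked up by name, at 5.46 to 8.42 CPM with VPA, 0.693 to 1.21 CPM with lithium and 0.868 to 1.45 CPM in control. Of 19 pan-neuronal markers 10 could be. The other markers were not analysed here.

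Lsp1 was modestly expressed and had few reads left with VPA. It had 16, 29 and 16 reads in VPA libraries 1, 2 and 3, against 174, 119 and 160 reads with lithium and 189, 133 and 192 in control. On the CPM scale these were 1.25, 3.10 and 1.28 with VPA, 15.0, 10.4 and 12.3 with lithium, and 17.1, 14.4 and 17.1 in control. Every VPA library lay below every library of the other groups, whereas lithium 1 lay above control 2, so those groups overlapped. VPA 2 had the highest Lsp1 level of its group. The group levels were 1.88 ± 1.06 CPM with VPA, 12.6 ± 2.29 CPM with lithium and 16.2 ± 1.54 CPM in control (SD, n = 3). Counting error alone would give SDs of 0.421, 1.02 and 1.24 CPM in these groups, so the controls spread little more than reads drawn at random would, and the VPA and lithium libraries spread more.

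Lcp1 was close to absent without VPA. It had 29, 20 and 46 reads in VPA libraries 1, 2 and 3, against 3, 1 and 5 reads with lithium and 2, 3 and 1 in control. The corresponding levels were 2.26, 2.14 and 3.69 CPM with VPA, 0.258, 0.0876 and 0.385 CPM with lithium, and 0.181, 0.325 and 0.0888 CPM in control. The VPA libraries stood clear of all others, and the lithium libraries spanned the range of the controls, with lithium 2 below and lithium 3 above all of them. VPA 3 was the highest library and VPA 2 the lowest of its group. Group levels were 2.70 ± 0.863 CPM with VPA, 0.244 ± 0.149 CPM with lithium and 0.198 ± 0.119 CPM in control (SD, n = 3). Without VPA a level thus rested on 1 to 5 reads per library, and its spread was that of counting, which alone gives SDs of 0.141 CPM in both groups. Lcp1 passed the filter on low counts only through the VPA libraries.

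**Figure D1:**
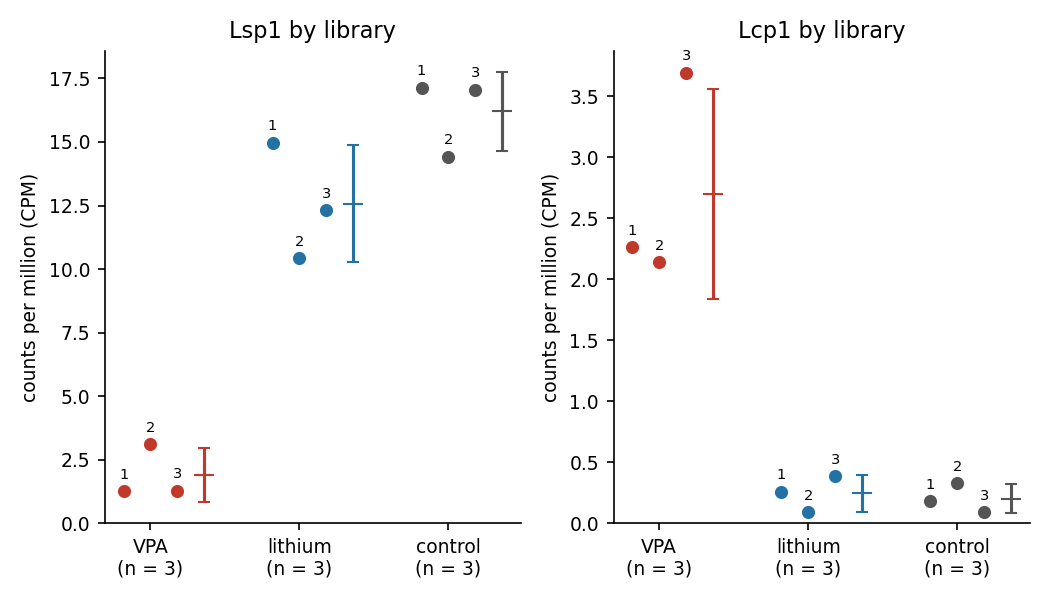
Levels of Lsp1 (left) and Lcp1 (right) in CPM, on linear axes with separate scales, for VPA, lithium and control libraries; points are libraries labelled by replicate number, and the bar beside them is the mean ± SD (n = 3). Lsp1 lies at 1.25 to 3.10 CPM with VPA against 14.4 to 17.1 CPM in control, and Lcp1 at 2.14 to 3.69 CPM with VPA against 0.0888 to 0.325 CPM in control.

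Within a library the reads of both genes can be set against each other, free of any scaling between libraries, though without regard to transcript length. There were 0.552, 1.45 and 0.348 reads of Lsp1 for each read of Lcp1 in VPA 1, 2 and 3. The same ratio was 58, 119 and 32 with lithium and 94.5, 44.3 and 192 in control. In VPA 1 and VPA 3 Lcp1 reads outnumbered those of Lsp1, and in the other 7 libraries Lsp1 reads were the more numerous. VPA 2 was the library of its group in which both genes stood nearest to the controls.

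VPA against control is the contrast on which the pair was chosen, so its values are descriptions and no test of either gene is given. In edgeR's fit the log2 fold change of Lsp1 was -3.15 ± 0.33 (SE, 95% interval -3.87 to -2.42), an 8.85-fold lower level with VPA. That of Lcp1 was 3.75 ± 0.54 (SE, 95% interval 2.57 to 4.92). In pooled reads Lcp1 had 95 with VPA against 6 in control, a depth-scaled ratio of 14.4 (95% counting interval 6.38 to 40.2). For Lsp1 the pooled reads were 61 against 514, a ratio of 0.108 (0.0814 to 0.141). Such intervals cover counting error only. Among all genes tested Lsp1 ranked 14 from the most negative fold change and Lcp1 25 from the most positive. Both ranks come from the contrast on which the pair was chosen, and that of Lcp1 rests on 6 control reads. Nothing is therefore read from either rank. By the authors' deposited DESeq2 fold changes, 59 listed genes rose more than Lcp1 and 2 fell more than Lsp1. At an adjusted p under 0.05, edgeR called 8.70% of the 12719 genes tested, 5.71% higher and 2.99% lower with VPA; since the pair was chosen in this contrast, nothing is read from those shares. The calls numbered 1106, against 1741 with the same-numbered libraries as a block, and 638, 698, 669 and 694 without VPA 1, VPA 2, VPA 3 and control 1. RNA came from whole cultures, so fewer cells of a type and less RNA per cell cannot be told apart for any gene below.

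For both genes every VPA library lay outside the range of the controls, so all 3 same-numbered pairs share a direction by construction. The sizes of the changes differed between pairs. Lsp1 was 13.7-fold, 4.65-fold and 13.3-fold lower in VPA 1, 2 and 3 than in controls 1, 2 and 3. Their depth-scaled ratios, with counting intervals, were 0.0728 (0.0408 to 0.121), 0.215 (0.139 to 0.323) and 0.0753 (0.0422 to 0.125), so the interval of pair 2 lay clear of those of both other pairs. Lcp1 was 12.5-fold (3.15 to 108), 6.58-fold (1.95 to 34.6) and 41.6-fold (7.10 to 1677) higher with VPA in pairs 1, 2 and 3. These intervals are wide because the control libraries supply 1 to 3 reads each. Pair 2 held the smaller change for both genes, and VPA 2 takes part in both values; its part in the difference was not tested.

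The authors' deposited tables list both genes for the same contrast. The authors' DESeq2 table gives a log2 fold change of -2.6 ± 0.283 (SE) for Lsp1 and 2.0 ± 0.373 for Lcp1. The second is well below the 3.75 fitted here, and 3.81 was obtained here with DESeq2 on the counts without moderation; whether the authors moderated their values is not given in the sources used here. The authors' deposited Salmon and sleuth table lists 1 transcript of each gene, with effects that come to -3.29 ± 0.389 for Lsp1 and 3.36 ± 0.885 for Lcp1 after conversion to log2. The authors' Cufflinks table gives Lsp1 1 FPKM value a group, 1.22 with VPA and 10.2 in control, and does not list Lcp1. FPKM is scaled by transcript length, so of these genes only Lsp1 has a level per length here.

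Lithium against control asks whether the other mood stabiliser, an inhibitor of glycogen synthase kinase 3 and of inositol monophosphatase, moved the same genes. The lithium libraries took no part in the choice of the pair, although the controls did, and this contrast shares its controls with the one above. Lsp1 had a log2 fold change of -0.37 ± 0.28 with lithium (SE, 95% interval -0.99 to 0.25), and it did not pass (edgeR quasi-likelihood, Benjamini-Hochberg adjusted p = 1). It was lower with lithium in all 3 same-numbered pairs, at 0.874, 0.723 and 0.722 of the control level. Of these, the counting intervals of pairs 2 (0.560 to 0.933) and 3 (0.582 to 0.896) lay below 1 and that of pair 1 (0.707 to 1.08) did not. Counting intervals leave out the spread between cultures. Lithium libraries 1 and 2 did not deviate together with the same-numbered controls (correlations of -0.418 and -0.0816), whereas lithium 3 did (0.801). No label states a pairing, so these pairs are given by shared number only.

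Lcp1 had a log2 fold change of 0.36 ± 0.72 with lithium (SE, 95% interval -1.22 to 1.93; edgeR adjusted p = 1). Lithium libraries held 9 reads together and controls 6, a depth-scaled ratio of 1.31 (95% counting interval 0.417 to 4.48). That interval, of counting error only, holds both lower and higher levels, so the direction of any change was not resolved at this depth. Without lithium 3 the estimate was -0.14. No gene at all was called with lithium, 0% of the 12719 tested, and 116 (0.912%) had an unadjusted p under 0.05 by edgeR (98 by DESeq2, which also called 0). The authors' deposited table for lithium, with 137 lines, names neither gene.

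VPA against lithium sets the libraries of both drugs side by side at the same dose and time. It reuses the VPA libraries on which the pair was chosen and is given without a test. Lsp1 had a log2 fold change of -2.78 ± 0.33 (SE, 95% interval -3.50 to -2.06) and Lcp1 of 3.39 ± 0.50 (2.30 to 4.48). Reads pooled over each group were 61 with VPA against 453 with lithium for Lsp1 and 95 against 9 for Lcp1. Here 7.93% of the 12719 genes tested were called, 1009 genes, against 1609 with the replicate block and 553 and 544 without lithium 1 and lithium 2. The order of levels was therefore VPA below lithium and control for Lsp1 and VPA above lithium and control for Lcp1. In both orders lithium and control were neighbours. The Lsp1 means of 12.6 CPM with lithium and 16.2 CPM in control lay further apart than the SD of either group, although single libraries overlapped and edgeR's test was not passed. For Lcp1 the means of 0.244 CPM with lithium and 0.198 CPM in control lay closer than the SD of either group.

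**Figure D2:**
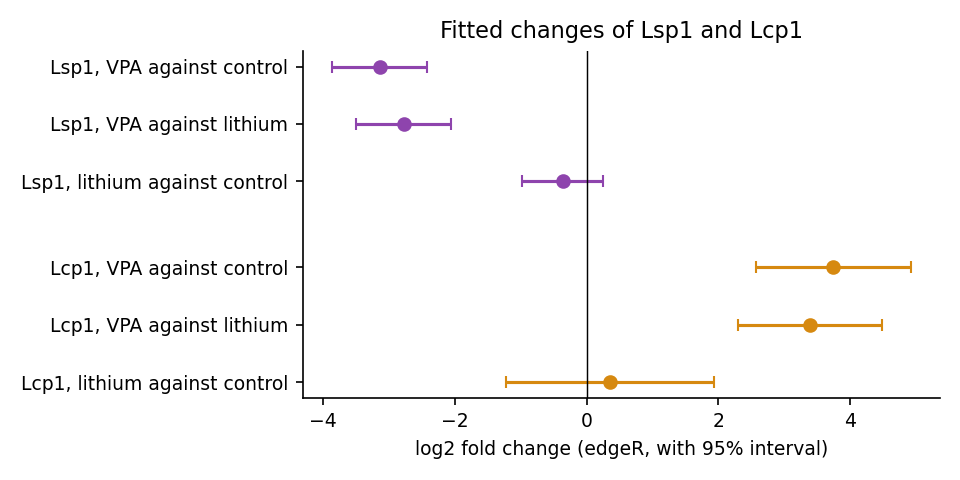
Fitted log2 fold changes of Lsp1 and Lcp1 in each contrast (horizontal axis), with edgeR's 95% interval as the bar. The intervals for lithium against control, -0.99 to 0.25 for Lsp1 and -1.22 to 1.93 for Lcp1, span 0; the contrasts with VPA are those on which the pair was chosen, so their intervals show precision only and are no test, and contrasts share groups.

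Other actin genes moved with VPA in both directions. A list of 104 genes of the actin cytoskeleton was compiled; besides the pair, 17 of its members had a symbol and enough reads. By edgeR's adjusted p, 10 of these 17 were higher with VPA, 2 were lower and 5 were not called. That is 70.6% called, against 77.0% of all 1243 tested genes with a symbol in the same contrast, of which 50.0% rose and 27.0% fell. The authors listed names by p-value on these samples, so most named genes are called by construction, and the share among actin genes was near that background. The median log2 change of the 17 was 1.35, against 0.90 over tested genes with a symbol and -0.01 over all genes tested. Without control 1 or without control 2, 6 of the 17 rose. Without VPA 1, 1 fell, and with the replicate block 4 fell. Calls over all genes in these fits were 694, 766, 638 and 1741, against 1106 in the main fit.

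The plastin of intestinal brush border and hair cells, Pls1, was the other member of Lcp1's own family with a name. It stood at 27.6, 23.8 and 30.6 CPM with VPA, 8.52, 8.76 and 12.9 CPM with lithium and 9.88, 10.1 and 12.1 CPM in control. The VPA libraries lay above all others. Pls1 rose by 1.35 ± 0.22 on the log2 scale with VPA (SE, edgeR adjusted p = 0.00325) and had a change of -0.09 ± 0.22 with lithium. The plastins are paralogs, and how reads matching several genes were counted is not given in the sources used here. The third plastin, Pls3, was not analysed here by name. Names come from the authors' selection on these samples, so the call of Pls1 is a description.

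Among the other risers, the filament cross-linking kinase C substrate Marcks changed by 1.43 ± 0.21 with VPA, the actin-binding Nexn of muscle and adhesions by 2.01 ± 0.29 and the smooth muscle calponin Cnn1 by 2.32 ± 0.36 (log2 ± SE). The 2 that fell, named after their values were seen, were the formin Fmnl1, a filament-elongating factor of blood cells, by -1.13 ± 0.19 and the tropomyosin Tpm2 by -1.15 ± 0.24. Without VPA 1, Tpm2 had an adjusted p of 0.0617 in edgeR's test and was not called. Fmnl1, known from leucocytes like the pair, was thus lower with VPA as Lsp1 was. Summed over the 17 genes the list stood at 508 to 622 CPM with VPA, 447 to 642 CPM with lithium and 425 to 663 CPM in control, so the groups overlapped in the total.

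Whether the leucocyte genes moved together was asked with a list of 57 leucocyte markers, of which 9 had a symbol and were tested. Among them 4 were higher with VPA, 2 were lower and 3 were not called, which is 66.7% called against the same 77.0%. With the replicate block, which called 1741 of all genes tested against 1106 in the main fit, 4 were lower. Coro1a, one of the 3 not called and named after its value was seen, is also on the actin list. The risers included Itgb2, the beta chain of the leucocyte integrins, the Src-family kinase Lyn and the lysosomal protein Cd68. Itgb2 stood at 6.62, 7.38 and 15.5 CPM with VPA, against 2.497, 1.14 and 2.77 CPM with lithium and 1.45, 1.30 and 2.13 CPM in control. As with Lcp1, the highest library was VPA 3. The log2 changes were 2.58 ± 0.43 for Itgb2, 1.63 ± 0.30 for Cd68 and 1.56 ± 0.34 for Lyn (VPA over control, ± SE). Lyn was not called without VPA 3 or without control 2, at an adjusted p of up to 0.0632 in edgeR's test.

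The 2 leucocyte genes that fell were the inositol phosphatase Inpp5d and the mast cell protease Mcpt8l2, whose family of near-identical copies makes its value uncertain. Inpp5d was at 2.10, 2.14 and 1.85 CPM with VPA, against 10.2, 15.3 and 11.7 CPM with lithium and 6.35, 8.89 and 9.24 CPM in control. Like Lsp1 it lay below every other library in all 3 VPA libraries, and it changed by -2.003 ± 0.263 (log2 ± SE, VPA over control). Its lithium libraries all lay above the controls, with a log2 change of 0.60 ± 0.23 that did not pass edgeR's test (adjusted p = 1). How many of all genes tested separate in this way was not counted, so nothing is read from it. Mcpt8l2 changed by -3.04 ± 0.63. Summed over the 9 markers the list stood at 73.5 to 124 CPM with VPA, 71.5 to 96.3 CPM with lithium and 57.1 to 90.4 CPM in control, and no group stood apart. The 9 named markers were detected in every group, none at 0 in a group mean; the pan-leucocyte markers Ptprc, Cd53 and Laptm5 were not analysed here by name. The part of any admixed blood cells in the levels of Lsp1 or Lcp1 was not tested.

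**Figure D3:**
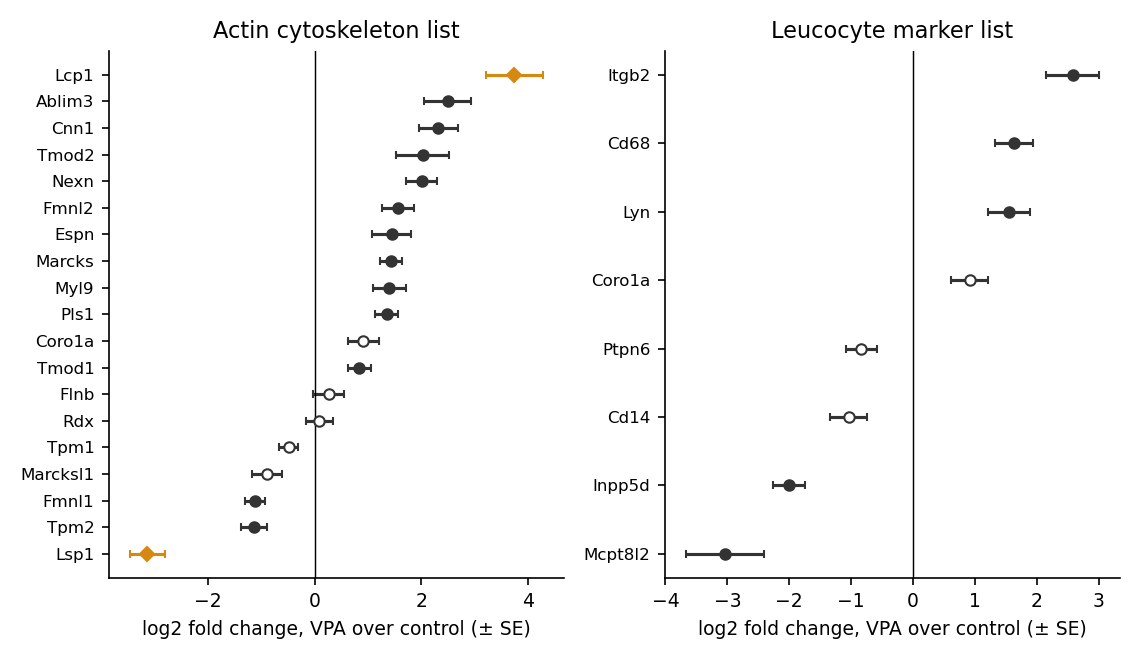
Log2 fold changes, VPA over control, of the tested members with a symbol of the actin cytoskeleton list (left, 19 genes) and the leucocyte marker list (right, 8 of its 9 genes); bars are ± SE, filled circles are genes called by edgeR, open circles are not, and diamonds are Lsp1 and Lcp1, shown without a call. In both lists values run on either side of 0, from -3.15 for Lsp1 to 3.75 for Lcp1 on the left and from -3.04 for Mcpt8l2 to 2.58 for Itgb2 on the right.

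Plastins and Lsp1 both act at adhesion sites, and of 39 integrin and adhesion plaque genes 8 could be tested by name. With VPA 4 rose, 3 fell and 1 did not pass, which is 87.5% called against 77.0% of all tested genes with a symbol. Besides Itgb2, the alpha chain Itga4, which pairs with beta chains on migrating cells, rose by 2.19 ± 0.40 (log2 ± SE), and these 2 kept their calls in every fit run. The other 2 risers, Itga2 and Parvb (the second named after its value was seen), and the 3 that fell, Parva, Tns3 and Tgfb1i1, each lost the call in 5 to 9 of the alternative fits, each time including the fit without VPA 1. A list of 15 kinases and substrates on the route that phosphorylates Lsp1 had 0 members with a symbol in the authors' tables.

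Markers of other cell states moved beside the pair. The 6 fibroblast markers with a symbol summed to 470 to 740 CPM with VPA, 1211 to 2665 CPM with lithium and 1811 to 3641 CPM in control, lower with VPA as Lsp1 was; most of this sum was the calcium-binding S100a4. Of the 6, 5 fell with VPA, and Pdgfra, a growth factor receptor, was not called, with a log2 change of 0.63 over control. That is 83.3% called, against 77.0% of all tested genes with a symbol (50.0% higher, 27.0% lower). The 10 pan-neuronal markers summed to 337 to 469 CPM with VPA, 136 to 174 CPM with lithium and 142 to 199 CPM in control, higher with VPA as Lcp1 was. The largest part was Uchl1, named after its value was seen, which was not called. It stood at 150 to 260 CPM with VPA, 74.9 to 107 CPM with lithium and 79.0 to 135 CPM in control. Of the 9 neuronal markers tested, 8 rose and 1 did not pass, which is 88.9% called against the same 77.0%. Most genes with a symbol are called by construction, so the counts of both lists are descriptions. The part of these cell states in the levels of Lsp1 and Lcp1 was not tested.

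Likeness of pattern was measured as the root mean square difference in log2 CPM over the 9 libraries after each gene was centred on its own mean, among 1173 other genes with a symbol and a mean of at least 1 CPM. Log2 CPM was taken with a prior count of 2 reads, which narrows differences between low counts. The genes most like Lsp1 were the cytokine receptor subunit Il20rb (0.452), the water channel Aqp1 (0.453), the co-receptor Gfra4 of the GDNF family (0.521), the metalloprotease Adam33 (0.547) and the fibrillar collagen Col3a1 (0.552), against a median of 1.82 over all candidates. Il20rb stood at 1.56, 1.82 and 0.722 CPM with VPA, 16.4, 12.6 and 8.16 CPM with lithium and 20.3, 19.1 and 11.9 CPM in control. Aqp1 stood at 28.4, 35.6 and 31.4 CPM with VPA, 128, 105 and 127 CPM with lithium and 166, 157 and 176 CPM in control. In both genes, as in Lsp1, the mean with lithium was below that in control, by 0.47 on the log2 scale (± 0.32 SE for Il20rb and ± 0.15 for Aqp1), and neither passed edgeR's test with lithium (adjusted p = 1).

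The genes most like Lcp1 were the tight junction protein Ocln (0.311), the protein kinase A inhibitor Pkib (0.314), the scaffold Mpp3 (0.327), the kinase Stk32c (0.356) and the collagenase Mmp13 (0.377), against a median of 1.09. Ocln stood at 2.57, 4.28 and 6.34 CPM with VPA, 0.430, 0.351 and 1.15 CPM with lithium and 0.453, 0.542 and 0.355 CPM in control. Pkib stood at 5.61, 3.21 and 5.86 CPM with VPA, 0.517, 0.175 and 0.385 CPM with lithium and 0.453, 0.651 and 0.266 CPM in control. Both were low without VPA, as Lcp1 was, although Ocln reached 1.15 CPM in lithium 3. These genes were picked for their likeness over the same libraries, and their names come from tables selected on VPA, so their resemblance is a description. With Lcp1 at 1 to 5 reads a library without VPA, the prior count narrows its differences. All 5 genes had smaller fitted changes than Lcp1, from 2.56 for Mpp3 to 3.43 for Pkib against 3.75 (log2, VPA over control).

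**Figure D4:**
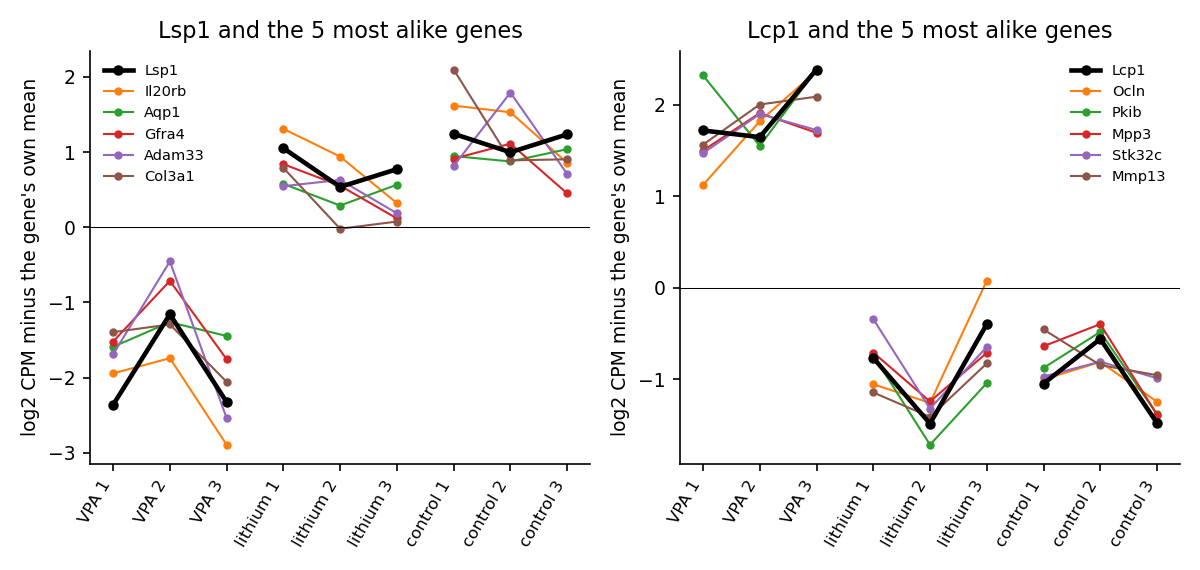
Log2 CPM (prior count of 2 reads) of Lsp1 (left) and Lcp1 (right), in black, and of the 5 genes most like each, in colours, after subtracting each gene's own mean over the 9 libraries. Lines link points of 1 gene within a group and imply no order. Root mean square differences run from 0.452 to 0.552 on the left and from 0.311 to 0.377 on the right.

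Lsp1 lies between genes that changed in opposite directions. The authors' deposited Cufflinks table places Lsp1 on chromosome 1 from 215541541 to 215804596, Ifitm10 from 215515763 to 215539410 and Igf2 from 215828101 to 215846911. The build is not given in the sources used here, nor whether starts count from 0 or 1. Lsp1's locus in that table is 263 kb long and ends 23.5 kb before Igf2. In RefSeq's GRCr8 annotation, used here only for gene order, 6 entries lie between Lsp1 and Igf2, among them Prr33, which overlaps Lsp1, the troponin gene Tnnt3 and Mrpl23. The long Cufflinks locus may therefore hold other genes' reads, and without strand the reads of Lsp1 and of an overlapping gene cannot be told apart.

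Ifitm10, of the interferon-induced transmembrane family, averaged 12.2 ± 3.23 CPM with VPA, 21.3 ± 2.78 CPM with lithium and 28.9 ± 7.59 CPM in control (SD, n = 3). It fell by 1.25 on the log2 scale with VPA (SE 0.25, edgeR adjusted p = 0.0102). Tnnt3, the fast muscle troponin T, averaged 0.388 ± 0.200 CPM with VPA, 1.17 ± 0.621 CPM with lithium and 2.25 ± 1.41 CPM in control, a log2 change of -2.52 ± 0.70 (edgeR adjusted p = 0.0453). Its call was lost without any 1 of VPA 1, 2 or 3, lithium 2, or control 1 or 2, at an adjusted p of up to 0.149 in edgeR's test. Igf2, the fetal growth factor beyond them, stood at 11.0, 11.1 and 12.6 CPM with VPA, against 0 to 0.175 CPM with lithium and 0.0888 to 0.181 CPM in control. Thus Lsp1, Ifitm10 and Tnnt3 were lower with VPA and Igf2 was higher. Ifitm10 is not next to Lsp1 in the RefSeq order, where 4 entries lie between them. Only neighbours that the authors listed for VPA carry names, so genes between the named ones that did not change could not be seen.

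Lcp1 has no position in the deposited tables. In the RefSeq annotation it is on chromosome 15, where 3 entries overlap it, namely Lrrc63, a long non-coding RNA and a pseudogene. The nearest entries that do not overlap Lcp1 are Rubcnl on one side and Cpb2 on the other. Of its 3 nearest entries on each side 0 had a symbol in the authors' tables. At 1 to 5 reads per library without VPA, reads of an overlapping transcript would weigh on its level in control and lithium, which the unstranded counts do not resolve.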

How the data were processed

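RNA-seq read counts of 9 RN46A libraries were used, grouped and numbered by the submitters' titles. The authors deposited raw counts per Ensembl gene; HTSeq is per the table's title. The submitters' processing notes name STAR 2.5.1, Cufflinks 2.2.1, Salmon 0.6.1, sleuth and DESeq2. The genome build is not given in the sources used here. The authors' deposited tables for VPA and lithium hold log2 fold changes, mean normalized counts (a signal), test scores and p-values, per the file headers; the Cufflinks table holds 1 FPKM value a group, per the file headers. The authors' Salmon and sleuth table holds effects on a natural log scale, read from their ratio to the log2 values of Cufflinks, 0.697 in the median. A table titled for kallisto repeats the DESeq2 table and was not used.

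Counts were fitted with edgeR 4.0.16 (R 4.3.3): TMM, filterByExpr with a minimum count of 10, robust quasi-likelihood fitting of 3 group means to the 9 libraries (6 residual degrees of freedom), tests taken as two-sided, Benjamini-Hochberg over 12719 genes, calls at an adjusted p under 0.05. SE was the fold change over the square root of F. The script was tested on simulated data. Depth limits precision to 0.0770 to 0.108 CPM per read.

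The pair and the lists were chosen with earlier results of these data known. Named genes were the pair, up to 6 tested members of each list by p with VPA, the 5 most alike genes, Pls1, and neighbours within 1 Mb or 3 places; genes outside this rule are said to be named after their values were seen; some are given as counts only, and 1 leucocyte gene, kept in the counts and sums, is not reported here. Same-numbered VPA and control libraries varied together about the means of their groups (correlations of 0.600, 0.533 and 0.525 over 10287 genes). Their title numbers were therefore used as pairs for description, since no label states a pairing. Correlations between differently numbered libraries were not computed, and the main fit took no account of pairs. Lithium and control varied together in number 3 (0.801) but not in numbers 1 and 2 (-0.418 and -0.0816). For VPA and lithium the correlations were -0.181, 0.0530 and 0.538. Alternatives were other scalings and filters, DESeq2 1.42.0, a non-robust fit, 2 groups alone, replicate blocks and leaving out each library. Libraries of 1 group differed by 27.0 to 68.3 in chi-square per degree of freedom, so none looked deposited more than once.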

Additional observations from a re-analysis of the deposited data

How the results depend on the processing

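Directions of both genes with VPA held in all alternatives run, against control and against lithium. The pair was chosen for these directions on the same libraries, so this is a description and no test. Leaving out 1 library gave log2 changes against control of -3.67 to -2.92 for Lsp1 (-3.67 without VPA 2) and 3.40 to 4.22 for Lcp1 (4.22 without control 2); against lithium they were -3.29 to -2.55 and 3.02 to 3.88. With lithium the ranges were -0.53 to -0.25 for Lsp1 and -0.14 to 0.82 for Lcp1, the sign turning without lithium 3 (-0.14), where the lithium level rests on 4 reads; neither passed in any fit. Lcp1 gave no value for lithium and control fitted alone, having too few reads there. Genes called with VPA against control numbered 638 to 1026 without 1 library, and 544 to 1197 against lithium. With the replicate block they numbered 1741 and 1609, and 2408 when blocked in a fit without lithium, chosen after seeing the data. That fit gave -3.19 for Lsp1 and 3.73 for Lcp1, and the block over all 9 libraries gave -3.16 and 3.73. The block over all 9 libraries changed no call of either gene with lithium. With 1 library left out, 6 to 10 of the other actin genes rose and 1 to 3 fell; with either block 4 fell. Of the leucocyte list 4 fell with no filter, DESeq2 or either block, and the cause was not tested. Those fits also called more genes in all. They called 1337 of 20128 with no filter, 1550 of 12719 by DESeq2, and 1741 of 12719 and 2408 of 12504 with the blocks. The main fit called 1106 of 12719. Depth limits Lcp1 without VPA, at 1 to 5 reads a library.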
